A study of Cyanidioschyzon merolae strain 10D with 12 samples.

Results

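Cyanidioschyzon merolae, a unicellular red alga of hot acidic springs, has several gene copies matched to L-lactate dehydrogenase. The 4 copies described here, CMK006C, CMI306C, CMJ002C and CMA145C, were taken by identifier from a deposited table of 4970 genes, because they were matched to that enzyme and were already known to be lower after the cells were moved to low CO2. Their values at LC 3 h and HC 0 h are therefore a description. The authors' deposited table holds 5 genes with the same best match, an Arabidopsis L-lactate dehydrogenase, and places all 5 in its fermentation category. The fifth, CMC188C, is not one of the 4 and behaved differently, so its values are given beside theirs.

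L-lactate dehydrogenase interconverts pyruvate and L-lactate, and NADH and NAD+ with them. In the direction of lactate it is known as a fermentative step that regenerates NAD+ for glycolysis when respiration cannot. The enzyme belongs to one protein family with malate dehydrogenase, which performs the corresponding reaction on oxaloacetate and malate.

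RNA was sequenced from 12 bulk libraries of wild-type strain 10D, 3 for each of 4 groups. Batch cultures at 30 °C and 90 µmol photons per square metre and second, begun at an OD750 of 0.7, received 5% CO2 for 24 h and were sampled (HC 0 h), then received air with 0.04% CO2 and were sampled after 3 h (LC 3 h) and 24 h (LC 24 h), and were returned to 5% CO2 for 24 h and sampled again (recovery). No group was kept at 5% CO2 alongside, so CO2 and time in culture cannot be told apart. The labels call the replicates independent and biological. The question of the time course, as far as the labels state it, is how transcript levels differ between high and low CO2 and after return.

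Depth ranged from 9671514 to 11367648 estimated counts per library at HC 0 h, from 9887991 to 12063877 at LC 3 h, from 13366144 to 22881427 at LC 24 h and from 24296458 to 28346661 at recovery. In each group, replicate 1 lay farthest from the other libraries of its group, at a root mean square distance of 0.330 to 0.530 on the log2 scale over all genes tested, against 0.198 to 0.328 for the other libraries. Where a replicate 1 library stood apart in a result below, the value without it is given beside it. The libraries measure the mean RNA level of a culture, so fewer expressing cells and less RNA per cell cannot be told apart.

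The copies share reads. Of the 48 estimated counts of the 4 copies, 47 were not whole numbers, and all 12 counts of CMC188C were not whole, which is what RSEM writes when it divides a read among several genes. Across all genes, 330 of 4970, or 6.64%, had such a value. The counts of the 4 copies summed to a whole number in 0 of 12 libraries, whereas the counts of all 5 genes summed to a whole number, within 0.015, in 12 of 12. How the shared reads were divided is an estimate, so the level of any single copy is uncertain and the sums over 4 and 5 genes are given with the single copies. The deposited gene lengths were 1066 bases for CMK006C, 1065 for CMI306C, CMA145C and CMC188C, and 832 for CMJ002C, the shortest copy.

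At HC 0 h the 4 copies together were abundant transcripts. Levels between genes are compared per length, on the deposited TPM scale, which corrects counts for gene length and library size. The mean TPM was 357 ± 26.2 (SD, n = 3) for CMI306C, 328 ± 53.5 for CMK006C, 219 ± 6.53 for CMA145C and 165 ± 17.1 for CMJ002C. Counted from the highest, these levels ranked 510, 561, 950 and 1411 among 4956 genes with a TPM. Taken as 1 gene, the 4 copies reached 1067 TPM, which would rank 136. CMC188C stood far below them, at 25.6 ± 3.97 TPM and rank 4560.

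The order of the levels was nearly the same in every library. CMI306C had the highest TPM of the 5 genes in 11 of 12 libraries, and CMK006C had it in HC 0 h replicate 1. CMJ002C was the lowest of the 4 copies in 12 of 12 libraries and CMC188C the lowest of the 5 in 12 of 12. CMK006C and CMA145C exchanged places: CMK006C had the higher TPM in the HC 0 h and recovery libraries and in LC 3 h replicate 1, and CMA145C in the other LC 3 h libraries and all LC 24 h libraries. Neighbours in this order were not separated in every group, since the TPM values of CMI306C and CMK006C overlapped at HC 0 h, LC 3 h and recovery.

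CMI306C, the most abundant copy, had normalised read counts (CPM, counts scaled by library size) of 313, 303 and 275 in replicates 1, 2 and 3 at HC 0 h and of 107, 56.3 and 54.2 at LC 3 h. At LC 24 h it stood at 171, 152 and 160 CPM, and at recovery at 251, 197 and 189. The lowest level was at LC 3 h, LC 24 h lay between LC 3 h and recovery, and no group overlapped another. Its mean CPM at LC 3 h, LC 24 h and recovery was 24.4%, 54.2% and 71.6% of that at HC 0 h.

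CMK006C, which was close to CMI306C at the start, had 317, 262 and 238 CPM at HC 0 h and 89.0, 45.1 and 39.7 at LC 3 h. It stood at 113, 108 and 114 CPM at LC 24 h and at 217, 147 and 149 at recovery. Its groups followed the same order without overlap, and its mean remained lower against HC 0 h than that of any other copy, at 21.3%, 40.9% and 62.8%. The LC 24 h libraries were the most alike, with an SD of 3.15 CPM around a mean of 112.

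CMA145C had 184, 186 and 176 CPM at HC 0 h and 79.0, 54.5 and 46.2 at LC 3 h. It had 124, 111 and 121 CPM at LC 24 h and 185, 141 and 145 at recovery. The copy showed the smallest displacement of the 4, at 32.9%, 65.2% and 86.3% of its HC 0 h mean, and recovery replicate 1 lay within the HC 0 h range.

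CMJ002C, the short copy, had 117, 107 and 97.0 CPM at HC 0 h and 38.2, 21.9 and 22.4 at LC 3 h. It had 56.7, 48.2 and 48.3 CPM at LC 24 h and 108, 70.7 and 67.9 at recovery. Here too recovery replicate 1 was inside the HC 0 h range while replicates 2 and 3 were below it. Its means were 25.7%, 47.8% and 76.9% of HC 0 h.

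CMC188C showed another course. It had 24.5, 18.9 and 20.5 CPM at HC 0 h and 19.4, 27.1 and 23.1 at LC 3 h, which overlap. It had 50.1, 48.4 and 50.4 CPM at LC 24 h and 28.0, 38.6 and 40.9 at recovery. The LC 24 h libraries were above all others, at 233% of the HC 0 h mean, and recovery lay at 168%.

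**Figure D1:**
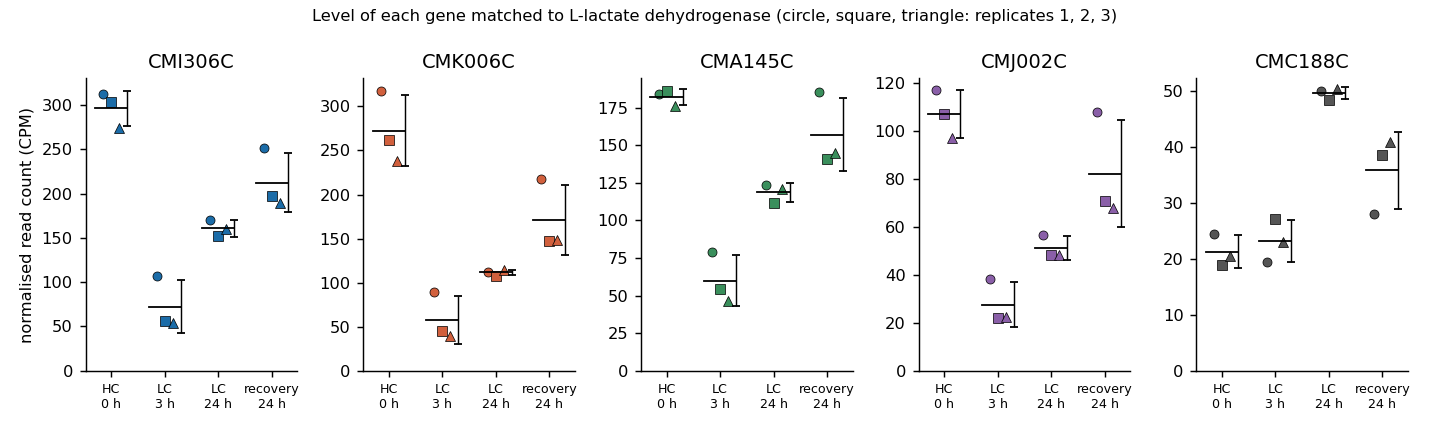
Normalised read count (CPM, vertical axis, from 0 in each panel) of the 5 genes matched to L-lactate dehydrogenase in the 4 groups, with 1 symbol per library for replicates 1, 2 and 3 and group means. The 4 copies are lowest at LC 3 h, whereas CMC188C is highest at LC 24 h, with 48.4 to 50.4 CPM.

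The 4 copies together had 931, 858 and 786 CPM at HC 0 h, 313, 178 and 162 at LC 3 h, 464, 420 and 443 at LC 24 h and 762, 556 and 551 at recovery. The means were 858 ± 72.4 (SD, n = 3), 218 ± 82.9, 442 ± 22.0 and 623 ± 120 CPM. The summed level was thus 25.4% of its starting value after 3 h at low CO2, 51.5% after 24 h and 72.6% after the return. Under a rank by TPM the sum went from place 136 to 818, 246 and 195.

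Fitted log2 changes describe the same course. At LC 3 h against HC 0 h, the change was -2.23 ± 0.28 (standard error) for CMK006C, -2.03 ± 0.23 for CMI306C, -1.96 ± 0.23 for CMJ002C and -1.60 ± 0.17 for CMA145C, and -1.98 ± 0.23 for the sum of the 4. Every LC 3 h library lay below every HC 0 h library for 4 of 4 copies, which also held for 24.9% of all genes tested, and nothing is read from this count because the members were chosen on that difference. CMC188C differed by 0.12 ± 0.17 (adjusted p = 0.593, edgeR), and by 0.35 ± 0.11 without replicate 1 of every group, which passed the threshold (adjusted p = 0.0153). The sum over all 5 genes, which does not depend on how reads were divided among them, changed by -1.87 ± 0.20. LC 3 h replicate 1 had the highest level of each of the 4 copies in its group, and without it the change was -2.69 for CMK006C, -2.43 for CMI306C, -2.28 for CMJ002C and -1.86 for CMA145C.

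At LC 24 h the copies stood partway. Against HC 0 h the log2 change was -1.29 ± 0.27 for CMK006C, -1.06 ± 0.22 for CMJ002C, -0.88 ± 0.22 for CMI306C and -0.62 ± 0.17 for CMA145C, and for the sum it was -0.96 ± 0.22. Against LC 3 h the same libraries were higher by 1.15 ± 0.22 for CMI306C, 0.99 ± 0.17 for CMA145C, 0.94 ± 0.27 for CMK006C and 0.89 ± 0.23 for CMJ002C. Without LC 3 h replicate 1 these values were 1.52 for CMI306C, 1.22 for CMA145C, 1.37 for CMK006C and 1.19 for CMJ002C. Every LC 24 h library lay below every HC 0 h library for 4 of 4 copies, as for 34.7% of all genes tested. These comparisons share libraries with the one on which the copies were chosen, so they carry no test. CMC188C, singled out after its values were seen, was higher at LC 24 h than at HC 0 h by 1.22 ± 0.16 (adjusted p = 7.15e-05, edgeR quasi-likelihood test with Benjamini-Hochberg adjustment over all genes), a call made of 32.7% of all genes tested in that direction. Leaving out any 1 library kept this change between 1.14 and 1.33.

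At recovery against HC 0 h the log2 differences were -0.67 ± 0.26 for CMK006C, -0.48 ± 0.22 for CMI306C, -0.38 ± 0.22 for CMJ002C and -0.21 ± 0.16 for CMA145C. The groups overlapped for CMJ002C and CMA145C and did not for CMK006C and CMI306C; a lack of overlap in this direction was seen for 18.4% of all genes tested. For CMC188C the difference was 0.75 ± 0.16, 0.90 without recovery replicate 1 and 1.01 without replicate 1 of every group. Without recovery replicate 1 the values of the 4 copies were -0.88 for CMK006C, -0.62 for CMI306C, -0.62 for CMJ002C and -0.35 for CMA145C.

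The return to 5% CO2 was tested, as the 1 comparison that shares no library with LC 3 h against HC 0 h, on which the copies were chosen. Earlier results of these data were known at that choice, and CMC188C, which moved the other way here, is not among the copies. The test may therefore not be independent of the choice. Recovery against LC 24 h, CMJ002C rose by 0.68 ± 0.22 on the log2 scale (adjusted p = 0.0238, 95% interval 0.20 to 1.17). The change was 0.62 ± 0.26 for CMK006C (adjusted p = 0.0735, interval 0.04 to 1.20), 0.40 ± 0.16 for CMA145C (adjusted p = 0.0618, interval 0.04 to 0.77) and 0.40 ± 0.22 for CMI306C (adjusted p = 0.148, interval -0.08 to 0.88). Thus 1 of 4 copies passed the threshold of an adjusted p under 0.05, where 24.7% of all genes tested were called higher and 24.9% lower. Every recovery library was above every LC 24 h library for 4 of 4 copies, as for 29.4% of all genes. For the summed LDH counts of the 4 copies the change was 0.49 ± 0.22 (adjusted p = 0.0843, interval 0.01 to 0.98), and for the 5 genes 0.42 ± 0.20 (adjusted p = 0.0988).

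Deviations of libraries with the same replicate number were positively correlated between these groups, though replicate 2 correlated slightly better with another number. With the replicate number as a block more copies passed. The blocked change was 0.66 for CMJ002C (adjusted p = 0.0011), 0.58 for CMK006C (adjusted p = 0.0185), 0.39 for CMA145C (adjusted p = 0.0205) and 0.39 for CMI306C (adjusted p = 0.0548), and 0.47 for the summed LDH counts (adjusted p = 0.0194), all by the same edgeR test. Recovery replicate 1 carried the highest level of each copy in its group. Without it the changes were smaller and no copy passed: CMJ002C 0.44 (adjusted p = 0.105), CMK006C 0.41 (adjusted p = 0.258), CMA145C 0.27 (adjusted p = 0.225) and CMI306C 0.26 (adjusted p = 0.396), with the summed LDH counts at 0.32 (adjusted p = 0.283). CMJ002C also missed the threshold without LC 24 h replicate 2 (adjusted p = 0.0726) or replicate 3 (adjusted p = 0.0701), and with the deposited TPM tested by limma (adjusted p = 0.0997). The TPM test moved the calls over all genes from 1200 higher and 1213 lower to 767 higher and 2014 lower, with a median change of -0.18 over all genes.

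In the same comparison CMC188C fell by 0.47 on the log2 scale (standard error 0.15, adjusted p = 0.0267, edgeR quasi-likelihood test), so that the 4 copies and CMC188C had changes of opposite sign. With the replicate block its adjusted p was 0.0215. The call was lost without LC 24 h replicate 1, 2 or 3 (adjusted p = 0.0513, 0.0558 and 0.0669) and without recovery replicate 1 (adjusted p = 0.0846).

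**Figure D2:**
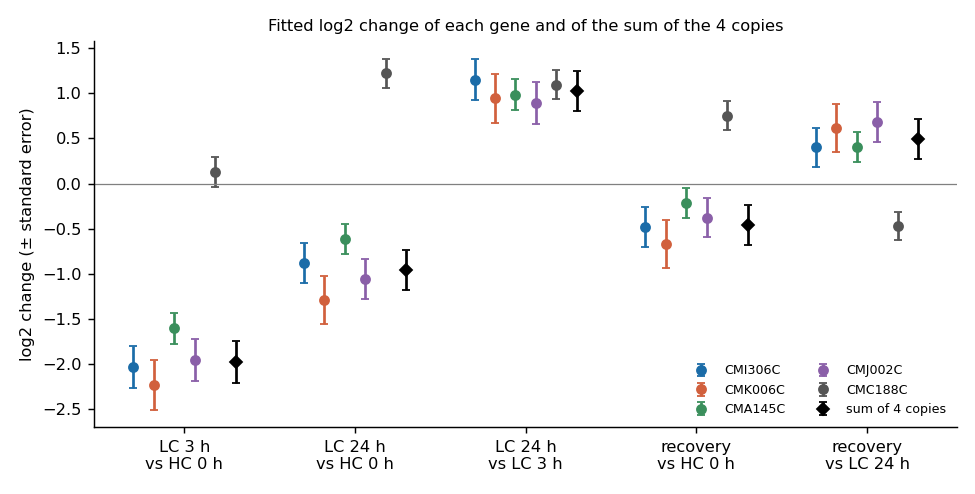
Fitted log2 change (vertical axis) with its standard error for each of the 5 genes and for the sum of the 4 copies in 5 comparisons between groups. The copies lie below 0 in the 3 comparisons against HC 0 h and above 0 in the others, while CMC188C lies above 0 at LC 24 h against HC 0 h (1.22) and below 0 at recovery against LC 24 h (-0.47).

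The copies kept unequal shares of the counts pooled over the 5 genes. CMI306C held 32.7% to 34.6% at HC 0 h, 27.5% to 32.1% at LC 3 h, 32.4% to 33.2% at LC 24 h and 31.8% to 33.1% at recovery. CMK006C held 29.5% to 33.2% at HC 0 h, 21.4% to 26.8% at LC 3 h, 21.9% to 23.1% at LC 24 h and 24.7% to 27.5% at recovery, so its share was largest at HC 0 h, without overlap. CMA145C had 19.2% to 21.9% at HC 0 h and 23.5% to 26.6% in the libraries of the other groups, the opposite pattern. CMJ002C stayed between 9.78% and 13.7% throughout.

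CMC188C, with the smallest share at HC 0 h, changed most as a ratio. It made up 2.15% to 2.57% of the pooled counts at HC 0 h, 5.84%, 13.2% and 12.4% in the LC 3 h replicates 1, 2 and 3, 9.75% to 10.3% at LC 24 h, and 3.55%, 6.49% and 6.90% at recovery. Exact 95% binomial (Clopper-Pearson) intervals were 2.26% to 2.90% for HC 0 h replicate 1 and 11.8% to 14.7% for LC 3 h replicate 2. These intervals cover counting error only and treat the divided reads as counted. The share of CMC188C in LC 3 h replicate 1 was below that of the other LC 3 h libraries. In that library the levels of the 4 copies were the highest of the group. The level of CMC188C was the lowest, at 19.4 CPM against 27.1 and 23.1 in replicates 2 and 3.

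As a ratio, counts of CMC188C over the summed 4 copies differed between recovery and LC 24 h by -0.97 on the log2 scale, and by -0.65 without recovery replicate 1. All 3 recovery libraries were below all 3 LC 24 h libraries, and the exact two-sided permutation test gave p = 0.1, the smallest that 3 libraries against 3 allow. The ratio of CMK006C to CMA145C was 1.73, 1.41 and 1.35 at HC 0 h, 1.13, 0.827 and 0.860 at LC 3 h, 0.910, 0.969 and 0.943 at LC 24 h and 1.17, 1.04 and 1.03 at recovery. It differed between recovery and LC 24 h by 0.20 on the log2 scale (exact two-sided permutation p = 0.1, again the smallest possible), and by 0.14 without recovery replicate 1. HC 0 h libraries had the highest ratios, above every library of the other groups.

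**Figure D3:**
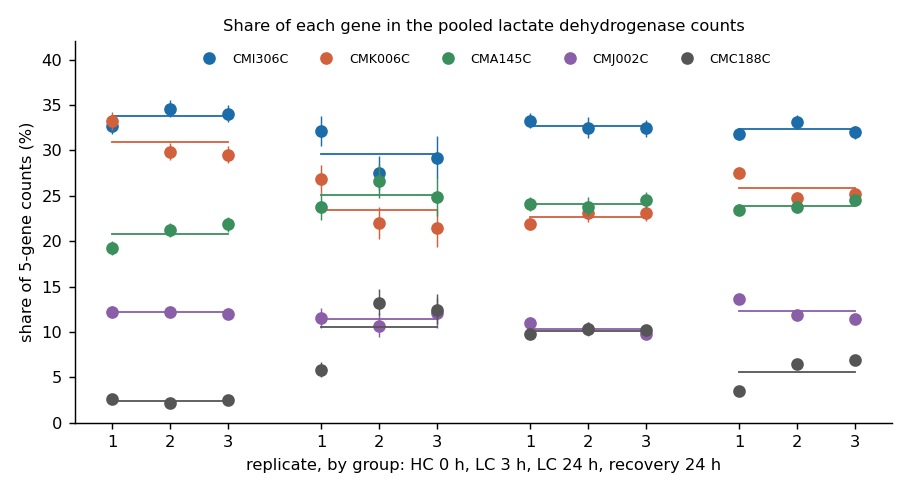
Share (%, vertical axis) of each of the 5 genes in their pooled counts, by library, with points for replicates 1, 2 and 3 of the 4 groups, vertical bars for exact 95% binomial intervals and lines for group means. CMC188C goes from 2.15% to 2.57% at HC 0 h to 9.75% to 10.3% at LC 24 h, and CMK006C is highest at HC 0 h.

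The copies lie at the ends of chromosomes. In the gene order of the RefSeq annotation (assembly ASM9120v1, used here for names and order only), CMI306C, CMJ002C, CMA145C and CMC188C are each the outermost annotated coding gene of their chromosome, and CMK006C is the second from its end. They sit on different chromosomes. Taking the outermost pair of coding genes at each end of the 20 nuclear chromosomes gives 80 genes, of which 5 are the lactate dehydrogenase genes. Of the other 72 that were tested, 17 fell and 16 rose at LC 3 h against HC 0 h. These counts are near the 19.3% and 22.1% of all genes tested. The median log2 change of the 72 was -0.01 and the lowest -0.80. The 4 copies were chosen on this difference, so nothing is read from their lower values.

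Genes next to the copies had changes closer to 0 at LC 3 h, the difference on which the copies were chosen, so nothing is read from the contrast. The 11 annotated neighbours of the 4 copies in the table, up to 3 genes inward or outward, had log2 changes of -0.42 to 0.77 at LC 3 h, with a median of 0.06. CMK001C, matched to an acyl-CoA binding protein and the only gene outside CMK006C, changed by -0.25, and the nearest inward neighbours were CMK008C (UFD1 family) at -0.29, CMI304C (weakly matched to emb2726, E-value 2e-05) at -0.10, and CMJ005C at 0.26 and CMA142C at 0.27, whose best matches in the authors' deposited table are kelch-repeat proteins at weak E-values of 0.003 and 0.001. CMK001C, CMJ005C and CMA142C also had counts that were not whole, so their reads too were divided with other genes.

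**Figure D4:**
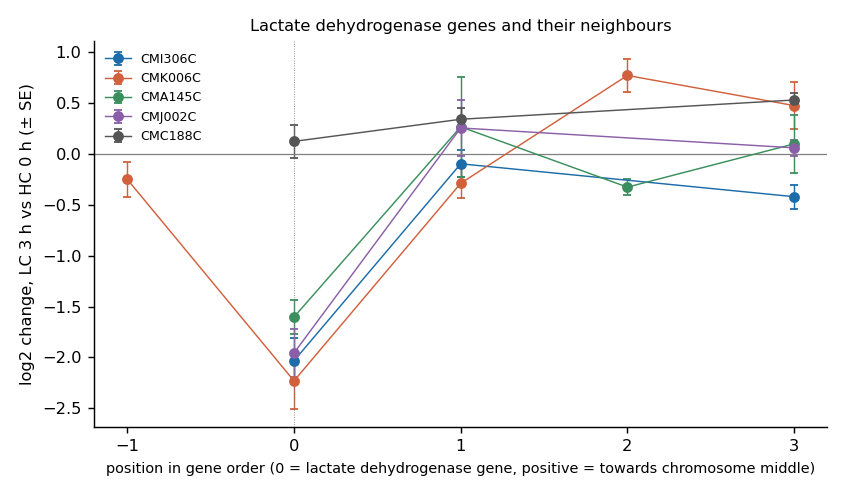
Log2 change at LC 3 h against HC 0 h with its standard error (vertical axis) for each lactate dehydrogenase gene (position 0) and its annotated neighbours by gene order, positive towards the middle of the chromosome. The 4 copies, which were chosen on this difference, lie between -2.23 and -1.60, and their neighbours lie between -0.42 and 0.77.

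The authors' deposited table assigns the 4 copies to its expression cluster 4, which holds 418 genes, and CMC188C to cluster 10, which holds 984. Each copy is part of the summed LDH counts and shares reads with the others, so its pattern lies near that of the sum by construction. Over the 12 libraries the root mean square distance in centred log2 CPM was 0.0608 for CMI306C and 0.0955 for CMJ002C. It was 0.141 for CMK006C and 0.169 for CMA145C. CMC188C, which is not in the sum, was at 0.966, so its distance and theirs are not compared. The median distance of 4563 ranked genes was 0.835. Outside the family the most alike gene was CMO124C, matched to cytosolic glucose-6-phosphate isomerase, an enzyme of glycolysis, at 0.320. It stood at 486, 175, 218 and 376 mean CPM in the 4 groups.

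CMR014C, matched to glucose-6-phosphate dehydrogenase, which opens the oxidative pentose phosphate pathway, followed at 0.363, with mean CPM of 235, 92.8, 97.4 and 198. CMH020C, matched to the pre-mRNA cleavage factor subunit CPSF73-I, was at 0.366 and the chaperonin CME197C at 0.427. The other 4 of the 8 most alike genes, CMI266C, CMP092C, CMS455C and CMN296C, were at 0.414 to 0.430 and have no assigned match. Among these 8 genes the change at LC 3 h ranged from -1.47 for CMO124C to -0.95 for CMS455C. The 4 copies had lower values, but they were chosen on that difference, so nothing is read from the contrast.

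Malate dehydrogenases, the relatives of lactate dehydrogenase, were lower at low CO2 as well. The cytosolic type CMP193C fell from 616 CPM at HC 0 h to 409 at LC 3 h and 229 at LC 24 h, a log2 change of -1.43 ± 0.10 at LC 24 h (adjusted p = 1.09e-06, edgeR), and rose to 434 at recovery. The second cytosolic type, CMT611C, had 225, 113, 57.5 and 176 CPM, and fell by 1.97 at LC 24 h (standard error 0.22, adjusted p = 2.57e-05, edgeR). Both had their lowest level at LC 24 h, while the 4 lactate dehydrogenase copies had theirs at LC 3 h. Those copies were chosen on their fall at LC 3 h, so nothing is read from this contrast. All 4 genes caught by the words malate dehydrogenase fell at LC 24 h, where 30.3% of all genes tested fell, including the NADP-malic enzyme CMJ051C (-0.57) and 3-isopropylmalate dehydrogenase CMM229C (-0.79), which acts in leucine synthesis. All 4 rose at recovery against LC 24 h, with a median change of 0.71, where 24.7% of all genes tested rose.

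The other genes for lactate and methylglyoxal that passed the test at low CO2 were higher there. Of 10, 5 rose and the remaining 5 did not pass at LC 3 h, where 22.1% of all genes tested rose and 19.3% fell. The counts were the same at LC 24 h, where 32.7% of all genes rose and 30.3% fell. At recovery against LC 24 h 4 fell, as did 24.9% of all genes. CMC188C, described above, is counted among the 10, among those that rose at LC 24 h and among those that fell at recovery. CMP184C, matched to the glyoxalase I family, which detoxifies methylglyoxal, rose from 33.7 ± 2.70 CPM (SD, n = 3) at HC 0 h to 611 ± 163 at LC 3 h, a log2 change of 4.18 ± 0.25 (adjusted p = 6.62e-07, edgeR), and stood at 316 ± 86.3 at LC 24 h and 35.1 ± 1.72 at recovery. CMP124C, matched to glyoxalase I, rose by 1.31 at LC 3 h and 0.65 at LC 24 h, and CMS357C rose by 0.42 at LC 3 h. The glyoxalase matches CMD108C, CMR395C and, at a weak E-value of 0.007, CMR330C passed in none of the 4 comparisons with all libraries. At recovery against LC 24 h, CMD108C and CMR395C passed as lower without LC 24 h replicate 1 (adjusted p = 0.0297 and 0.00267, edgeR). CMR330C did so without recovery replicate 1 (adjusted p = 0.0228, edgeR). CMD108C and CMR395C also passed as lower at recovery against HC 0 h under some alternatives. The list's words also caught the acetolactate synthase genes CMO344C, CMV018C and CMV122C, which act in branched-chain amino acid synthesis. CMV018C changed by 1.84 at LC 3 h and 1.87 at LC 24 h. Its level was very low, with mean CPM of 0.27 at HC 0 h, 0.99 at LC 3 h and 1.01 at LC 24 h. The first call was lost without HC 0 h replicate 1 or 3, any LC 3 h library, LC 24 h replicate 2 or recovery replicate 2 or 3 (highest adjusted p = 0.130, edgeR), and the second when replicate 3 of HC 0 h or of LC 24 h was left out (highest adjusted p = 0.0937). CMV122C changed by 0.77 and 0.80. These calls were lost when replicate 2 or 3 of HC 0 h or replicate 1 or 3 of LC 3 h was left out (highest adjusted p = 0.110, edgeR), and when replicate 2 of HC 0 h or replicate 3 of LC 24 h was left out (highest adjusted p = 0.0709).

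Among 22 genes that form or use pyruvate, the substrate of the copies, 9 rose and 9 fell at LC 3 h. At LC 24 h 8 rose and 12 fell, and at recovery against LC 24 h 9 rose and 7 fell. Of all genes tested, 22.1% rose and 19.3% fell at LC 3 h, and 32.7% rose and 30.3% fell at LC 24 h. At recovery against LC 24 h, 24.7% rose and 24.9% fell. Pyruvate kinases, which make pyruvate, were mostly lower: CMA030C fell by 0.50 at LC 3 h and by 1.22 at LC 24 h, CMC021C fell by 0.91 and 1.38, CMK041C fell by 0.48 and 0.83, and CMP260C was at -0.17 (adjusted p = 0.201, edgeR, and 0.0461 without recovery replicate 1) and fell by 0.81. Pyruvate dehydrogenase subunits CMN017C, CMI273C and CMQ234C, matched to the E2 and E3 components, fell by 0.91, 0.51 and 0.62 at LC 3 h, while the E1 match CMS327C was higher at LC 3 h (0.45) and lower at LC 24 h (-0.58). Genes that rose included pyruvate phosphate dikinase CMF012C (4.67 at LC 3 h), alanine aminotransferase CMM066C (2.12), the lipoamide dehydrogenase match CMM299C (2.46) and pyruvate dehydrogenase kinase CMR225C (1.20), which inhibits pyruvate dehydrogenase. Phosphoenolpyruvate carboxylase CME095C, caught by the word pattern, rose by 1.29 at LC 3 h.

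Also on that list were the E1 match CMT256C (-0.39 at LC 3 h and -0.57 at LC 24 h) and the plastid-encoded E1 match CMV153C (0.08 and 0.53). Others were the E2 match CMN233C (-0.12 and -0.57), the branched-chain E2 match CML146C (0.39 and 0.83) and the lipoamide dehydrogenase match CMJ014C (-0.28 and -0.25). The lists overlap, so some genes are counted in more than a single list. CMO344C, CMV018C, CMV122C and the NADP-malic enzyme CMJ051C, described above, are counted in this list too. CMV018C and CMV122C are among its genes that rose at LC 3 h and at LC 24 h. CMV153C passed in neither comparison with all libraries, but passed at LC 24 h without LC 24 h replicate 1 (adjusted p = 0.0363, edgeR). The LC 3 h call of CMT256C was lost when replicate 1 or 3 of HC 0 h or replicate 2 or 3 of LC 3 h was left out (highest adjusted p = 0.0899, edgeR). Both calls of CMJ014C were lost without HC 0 h replicate 1 or 2 or without replicate 2 or 3 of the low CO2 group (highest adjusted p = 0.106 and 0.117, edgeR).

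Of 21 glycolysis genes, whose plastid and cytosolic forms are not told apart, 7 rose and 9 fell at LC 3 h. At LC 24 h 4 rose and 13 fell, and at recovery against LC 24 h 11 rose and 4 fell. Of all genes tested, 22.1% rose and 19.3% fell at LC 3 h, and 32.7% rose and 30.3% fell at LC 24 h. At recovery against LC 24 h, 24.7% rose and 24.9% fell. The largest falls at LC 24 h were those of the phosphoglycerate mutase CMK188C (-3.06) and the glyceraldehyde-3-phosphate dehydrogenase match CMM167C (-2.95), and the largest rises at LC 3 h those of CMT034C, matched to a glyceraldehyde-3-phosphate dehydrogenase of the aldehyde dehydrogenase family (2.16), and the phosphoglycerate mutase family gene CMN311C (2.07). Of 13 genes for ethanol, aldehyde and acetate, 6 rose and 3 fell at LC 3 h and 6 rose and 5 fell at LC 24 h. The shares of all genes given above apply to these counts too. Acetyl-CoA synthetase CMK098C, which activates acetate, rose by 1.79 at LC 3 h, and the alcohol dehydrogenase match CMQ301C fell by 1.16. The lowest value at LC 3 h among the genes of the 5 lists was -1.67, that of CMM167C. The -2.23 to -1.60 of the 4 copies is the difference on which they were chosen, so nothing is read from the contrast.

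**Figure D5:**
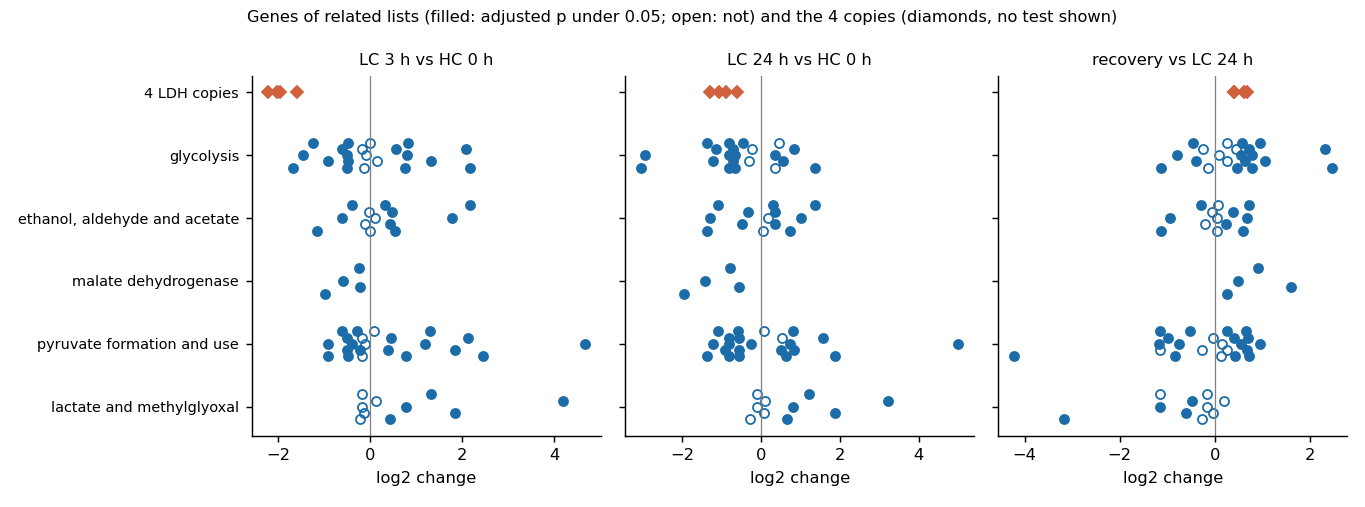
Log2 change (horizontal axis) of each gene in 5 lists of related enzymes and of the 4 lactate dehydrogenase copies (diamonds), by comparison, with filled points for genes at an adjusted p under 0.05 and open points for the others. At LC 3 h the 4 copies, chosen on this difference, lie between -2.23 and -1.60, and the listed genes between -1.67 and 4.67.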

How the data were processed

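Transcript levels were measured by paired-end RNA sequencing (100 base reads, TruSeq RNA kit v2) in 12 libraries. Per the submitters' processing notes the authors used CASAVA 1.8, Bowtie2, RSEM and edgeR; for their roles, any other versions and the genome build and annotation, the entry is: not given in the sources used here. Per the file headers, the authors deposited expected counts and TPM for each library, log2 fold changes and q-values (p-values adjusted by a method not stated), gene lengths and best Arabidopsis matches. Whether counting used strand is not stated. All per-sample columns were matched to samples by name, with 0 left unmatched.

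Expected counts were rounded to whole numbers and tested in edgeR 4.0.16 (limma 3.58.1, R 4.3.3): TMM scaling, default expression filter (4865 genes kept, 105 removed, all 4 copies kept), robust quasi-likelihood F test over 12 libraries in 4 groups, Benjamini-Hochberg adjustment over all genes. Standard errors follow from the change and its F value, and CPM used TMM-scaled totals. For sums, the 4 or 5 genes were replaced by 1 feature. The p-values weigh each change against the spread between the labelled replicates, estimated over all 4 groups together. The main fit did not use the replicate numbers. Members and lists were chosen with earlier results of these data known. Named genes are the 4 copies, all genes of the lactate, pyruvate and malate dehydrogenase lists, the largest changes of the other lists, the 8 most alike patterns (prior count 2, average log2 CPM of at least 4) and up to 3 neighbours on each side; CMC188C, a member of the lactate list, was given added room after its values were seen. List genes were found by words in the deposited descriptions. Of 4970 identifiers, 4738 matched RefSeq.

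For recovery and LC 24 h, deviations of libraries with the same replicate number correlated at 0.535, 0.212 and 0.482 (best correlation with another number -0.457, 0.260 and 0.456), so the block was taken to pair them by the rule that every pair exceed 0.1; the pairing comes from the data, as the labels give only shared numbers. Alternatives were other scalings and filters, DESeq2 1.42.0, limma on log2(TPM + 1), the block, fewer groups and libraries left out. The sum of 5 genes and leaving out replicate 1 of every group were added after the data were seen. The pipeline was tested on simulated data.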

Additional observations from a re-analysis of the deposited data

How the results depend on the processing

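No value past the threshold changed sign under any alternative tried. Small values that missed it did in places, as for CMC188C at LC 3 h against HC 0 h, which ranged from -0.03 to 0.35. Alternative values were set beside the main ones for the 4 copies, CMC188C, their sums and the counts of called genes. Of 845 such values, 788 stayed on the same side of the threshold or within the replicate spread. For the counts of called genes, staying meant lying within a fixed ratio of the main count. The recovery against LC 24 h change of the copies passed the threshold under some alternatives and missed it under others. With DESeq2 it was 0.63 for CMK006C and 0.41 for CMA145C, both past the threshold. With the replicate block it was 0.47 for the summed LDH counts, 0.58 for CMK006C and 0.39 for CMA145C, each past it, and the block ended no call of the copies or of CMC188C. With only the libraries of these 2 groups it was 0.51 for the sum, 0.63 for CMK006C, 0.42 for CMI306C and 0.42 for CMA145C, each past it. With TPM in limma CMJ002C was 0.47 and missed it. Without replicate 1 of every group the sum was 0.36, CMK006C 0.41, CMI306C 0.31 and CMA145C 0.30, each past the threshold. Leaving out single libraries gave 0.32 to 0.59 for the sum, 0.41 to 0.73 for CMK006C, 0.26 to 0.49 for CMI306C, 0.44 to 0.82 for CMJ002C and 0.27 to 0.49 for CMA145C. Without LC 3 h replicate 1, a library of neither group compared, all 4 copies passed. The sum over 5 genes was -0.84 at LC 24 h against HC 0 h. At recovery against HC 0 h, 2 listed genes were higher and 11 lower; DESeq2 gave 6 higher, the block 9 higher and 19 lower, TPM 1 higher, leaving out replicate 1 of every group 13 higher and 24 lower, and leaving out single libraries 0 to 5 higher and 4 to 15 lower. Genes called at recovery against LC 24 h numbered 767 higher and 2014 lower with TPM. TPM values moved the median of all genes by -0.13 at LC 3 h and 0.11 at LC 24 h against HC 0 h. The cause of these differences was not tested. Of the 61 listed genes, 45 were called at LC 3 h, 49 at LC 24 h and 13 at recovery, each against HC 0 h, and 41 at recovery against LC 24 h. Of these, 33, 42, 4 and 31 kept their call under every alternative tried. At the depth of LC 3 h replicate 3 the 4 copies had 187 to 453 estimated counts each, the smallest counts behind their values.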
